A study of Bos taurus with 60 samples.

Results

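The 2 miRNAs bta-miR-10a and bta-miR-10b were taken, by name, from the 608 bovine miRNAs of a small RNA sequencing count table, and both were described in all 60 libraries of the study. The libraries came from 10 feedlot beef steers (British × Continental crosses), of which 5 were super-shedders (SS274, SS287, SS294, SS299 and SS310) that shed high numbers of Escherichia coli O157 in feces, and 5 were non-shedders (NS108, NS152, NS165, NS242 and NS745), pen-mates whose feces were negative for it. Each steer gave 1 library from whole tissue of each of 6 regions, which were the duodenum, the proximal jejunum and the distal jejunum of the small intestine and the cecum, the spiral colon and the descending colon of the large intestine. There were therefore 5 SS and 5 NS libraries in each region, and the steer was the biological replicate. Shedding was the natural state of the animals and not an assigned treatment, and the steers carried no genetic change. The SS steers were classed some days before slaughter, and the tissue was collected after it. By the paper's account only SS310 was still at super-shedder level at slaughter, and the other SS steers were positive below that level.

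The miR-10 family is one of the oldest miRNA families of animals, and its genes lie inside the HOX clusters, the rows of transcription factor genes that give the tissues of the embryo their position from head to tail. The gut keeps a head-to-tail order of HOX expression into adult life, and in mammals miR-10 RNAs are abundant in the intestine. In human and mouse, miR-10 members repress several HOX messages, among other targets.

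In the RefSeq annotation of the cattle assembly ARS-UCD2.0, used here only for names and neighbours, MIR10A lay within the span of HOXB3, between HOXB5 and HOXB4, and MIR10B lay within HOXD4, with HOXD3 and HOXD8 as its protein-coding neighbours. The HOX clusters also hold MIR196A-1 (within HOXB9), MIR196A-2 (between HOXC9 and HOXC10), MIR196B (between HOXA10 and HOXA9) and MIR615 (within HOXC5), whose miRNAs are set beside the members below. The mature miR-10a and miR-10b are nearly identical, so a read could be assigned to the wrong copy. The sources used here do not say how the counting resolved such reads, and the ratio of the pair is uncertain to that extent.

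The libraries held 535373 to 19346766 counts (median 1735054.5). Levels are given as CPM, the share of the library total scaled to 1e+06 counts. Both members were far above the counting limit in every library. The count of bta-miR-10a was 1982 to 761567 and its level 1028 to 118105 CPM, and by level it stood between position 2 and position 47 among the 608 miRNAs (median 4.5). The count of bta-miR-10b was 1712 to 1178748 and its level 1545 to 224597 CPM, which placed it between 2 and 49 (median 3). Counts this high make counting error small beside the spread between steers. Together the members took a mean of 1.55% of the counts in duodenum, 6.16% in proximal jejunum, 9.77% in distal jejunum, 14.9% in cecum, 9.09% in spiral colon and 10.7% in descending colon.

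Before the results, 11 libraries have to be named whose level of bta-miR-196b went against their region. This miRNA of the posterior part of the HOXA cluster had 176 to 1459 CPM in 24 of the 30 large intestinal libraries and 0 to 10.6 CPM in 25 of the 30 small intestinal ones. The other 6 large intestinal libraries, namely SS299 cecum, SS294, SS299 and NS165 spiral colon, and SS287 and SS294 descending colon, had only 0 to 1.40 CPM. The other 5 small intestinal libraries, namely SS299 and NS152 proximal jejunum and SS294, SS299 and NS152 distal jejunum, had 158 to 629 CPM. These are 8 SS and 3 NS libraries. The enterocyte miRNA bta-miR-215 had a median of 24109 CPM in the 6 large intestinal libraries against their label and 1762 CPM in the other large intestinal ones. In the 5 small intestinal libraries against their label its median was 1167 CPM, and 25770 CPM in the other small intestinal ones, although the ranges overlapped. In some of the 11 libraries bta-miR-215 went with the label and not with bta-miR-196b. It had 40146 and 35638 CPM in NS152 proximal and distal jejunum, and 414 CPM in SS299 cecum. In SS299 proximal and distal jejunum it had 76 and 60 CPM, but the epithelial bta-miR-192 was also low, at 1341 and 2163 CPM. A low bta-miR-215 there cannot be told from little epithelium. The same libraries had 1.01 and 12.03 CPM of bta-miR-196a. Its level was 75.5 to 303 CPM in the other jejunal libraries against their label, and its median 7.67 CPM in the remaining small intestinal ones. Labels were kept as deposited, and the comparisons between regions and between SS and NS are also given without these 11 libraries where the values moved. The tests of the ratio and the order of likeness were recomputed without them too, but the correlations within a region were not. They were picked by a level of 50 CPM after the values were seen, and bta-miR-196b is itself a HOX miRNA, so for differences between regions the values without them are not independent of the question.

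Marker miRNAs of other cell types set several libraries apart, most of all those of SS299. The summed level of the epithelium list (all 9 measured, none at 0 throughout a group) was 1538 CPM in SS299 proximal jejunum, 2534 CPM in SS299 distal jejunum and 2844 CPM in SS299 descending colon. The lowest sum among the NS libraries of these regions was 137920, 139529 and 37773 CPM, in that order. The leukocyte list summed to 678, 367 and 1319 CPM in the same 3 libraries of SS299, and the red blood cell list to 14942 CPM in its descending colon. The epithelium list was also low in SS274 descending colon, at 18636 CPM, and in NS745 cecum, at 16836 CPM. Of this list, SS299 duodenum had 99 CPM of bta-miR-375 and 1267 CPM of bta-miR-215, the lowest of the duodenum libraries, but 201462 CPM of bta-miR-192. In NS242 descending colon the mesenchyme list summed to 20184 CPM (2175 to 5174 CPM in the other NS libraries of the region), the endothelium list to 26542 CPM (2922 to 5937 CPM) and the smooth muscle list to 117475 CPM (597697 to 659114 CPM). In NS108 cecum the endothelium list summed to 24572 CPM, where the other NS libraries had 3479 to 5814 CPM. Results that rest on SS299 are therefore also given without it.

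**Figure D1:**
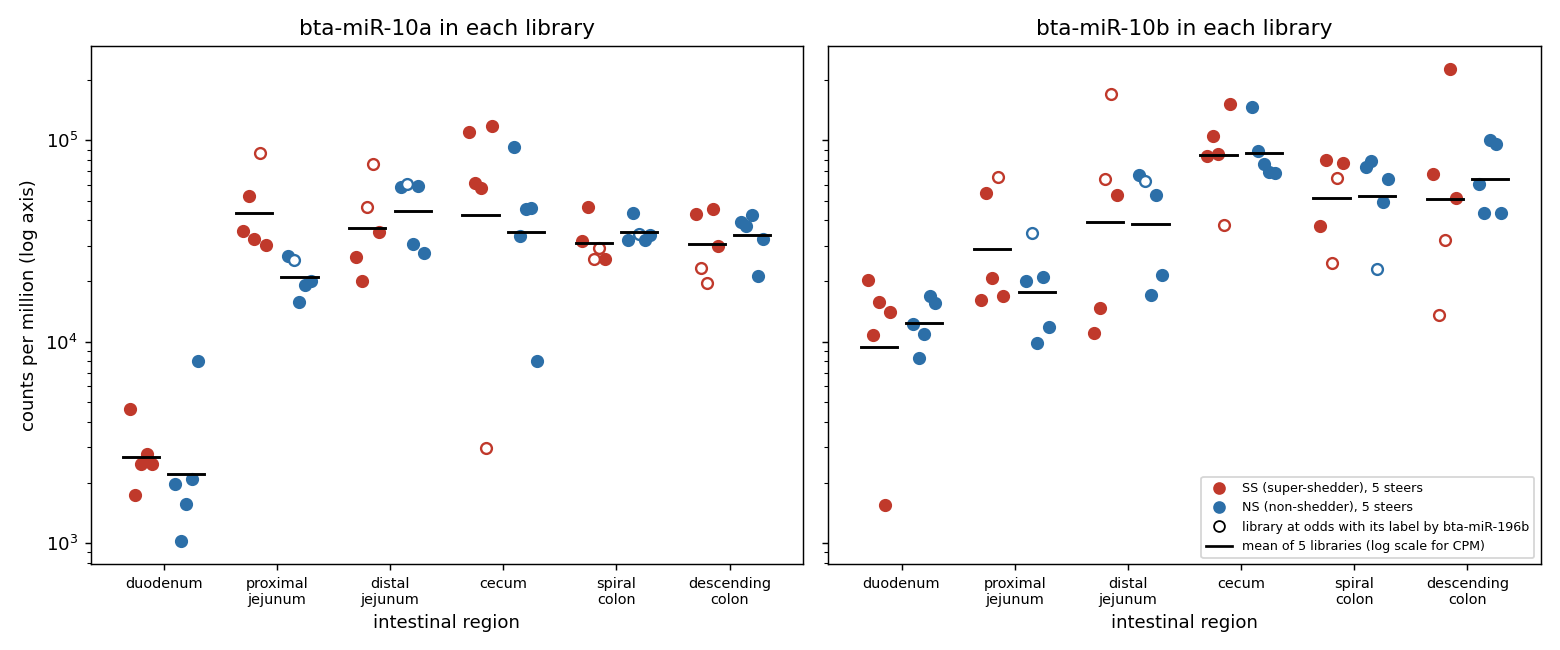
Level of bta-miR-10a (left) and bta-miR-10b (right) in each of the 60 libraries, in CPM on a log axis, by intestinal region. Points are steers, SS left of NS in each region, bars are the geometric mean of 5 libraries and open points are the 11 libraries against their label. The duodenum is the lowest region for both members, with 1028 to 8061 CPM of bta-miR-10a.

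In duodenum bta-miR-10a had 4621, 1733, 2470, 2761 and 2473 CPM in SS274, SS287, SS294, SS299 and SS310, against 1972, 1028, 1557, 2082 and 8061 CPM in NS108, NS152, NS165, NS242 and NS745. Steers are given in this order below. In proximal jejunum it had 35305, 52701, 32372, 86602 and 30279 CPM in SS and 26770, 25480, 15720, 19141 and 20042 CPM in NS. Every proximal jejunum library was above every duodenum library, and every SS value there was above every NS value. For gaps of this kind, here and below, the share over all miRNAs was not counted. In distal jejunum it had 26213, 19981, 46761, 76662 and 34885 CPM in SS and 58882, 60540, 30644, 59608 and 27561 CPM in NS, and the phenotypes overlapped.

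In the large intestine the cecum was the most variable region for bta-miR-10a, with 110491, 61098, 58262, 2954 and 118105 CPM in SS and 92253, 33501, 45812, 46166 and 8069 CPM in NS. The low cecum value of 2954 CPM was that of SS299, one of the libraries against their label, and lay within the range of the duodenum. In spiral colon it had 31709, 46726, 25804, 29089 and 25870 CPM in SS and 31990, 43643, 34208, 31940 and 34062 CPM in NS. In descending colon it had 43011, 23132, 19484, 45433 and 29863 CPM in SS and 39364, 37725, 42684, 21271 and 32271 CPM in NS. Both colon regions had overlapping phenotypes and a narrow spread.

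The mean ± standard deviation of bta-miR-10a over the 10 steers was 2876 ± 2060 CPM in duodenum, 34441 ± 21102 in proximal jejunum, 44174 ± 18967 in distal jejunum, 57671 ± 39387 in cecum, 33504 ± 6859 in spiral colon and 33424 ± 9647 CPM in descending colon. The level thus made a single large step, between duodenum and proximal jejunum. All 10 steers had more bta-miR-10a in each of the other 5 regions than in their own duodenum. In bulk tissue such a difference can mean fewer cells of a type or less of the miRNA per cell, and these cannot be told apart.

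The level of bta-miR-10a differed between regions (F test of edgeR over 12 group means, adjusted p = 1.44e-07), and it ranked 3 of 381 miRNAs tested by p. Of these 381, 116 (30.4%) passed the FDR of 10% used for all edgeR tests. The tests of the ratio and of the correlations were judged at an adjusted p of 0.05. Relative to duodenum, bta-miR-10a was higher by 3.71 ± 0.49 on the log2 scale in proximal jejunum (log2fold-change ± SE), which is 13.1-fold (95% interval 6.56 to 26.0, adjusted p = 2.94e-07). It was 19.7-fold higher in distal jejunum (9.70 to 39.9, adjusted p = 8.82e-09) and 21.9-fold higher in cecum (10.7 to 44.7, adjusted p = 3.7e-09). In spiral colon it was 14.4-fold higher (7.19 to 28.7, adjusted p = 1.26e-07), and in descending colon 18.4-fold higher (9.10 to 37.2, adjusted p = 1.54e-08). In each of these 5 comparisons bta-miR-10a had the smallest p of all 381 miRNAs. The share of miRNAs that passed was 9.45% in proximal jejunum against duodenum, 9.45% in distal jejunum, 14.7% in cecum, 8.40% in spiral colon and 16.8% in descending colon. Other cell type lists moved along this step as well. In proximal jejunum against duodenum 2 of 9 epithelium miRNAs were lower (list median -0.95 on the log2 scale), 1 of 5 mesenchyme miRNAs was higher (0.32) and none of 6 leukocyte miRNAs passed (0.60). In cecum and in descending colon against duodenum 4 of 5 mesenchyme miRNAs were higher (0.61 and 0.68), and 1 of 6 leukocyte and 1 of 9 epithelium miRNAs were lower. Of 4 neuron miRNAs 1 was lower in each of these 2 regions and in proximal jejunum, and 1 was higher in proximal jejunum and in descending colon. In descending colon 1 of 5 smooth muscle and 1 of 3 red blood cell miRNAs were higher too. Their part in the result was not tested. With the steer as a block, 59 miRNAs passed in distal jejunum against duodenum, against 36 without it.

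Among the 5 regions beyond the duodenum no pair passed for bta-miR-10a in any of the 10 tests. The largest difference was that of cecum over proximal jejunum, 0.75 ± 0.45 on the log2 scale (adjusted p = 0.293), with a 95% interval of the fold of 0.902 to 3.12. Without the 11 libraries against their label, bta-miR-10a passed in 5 of these pairs. It was then higher by 1.41 in cecum, 0.89 in spiral colon and 1.25 in descending colon than in proximal jejunum (adjusted p = 0.00309, 0.0724 and 0.00483), and by 1.16 in cecum and 1.0 in descending colon than in distal jejunum (adjusted p = 0.0204 and 0.0286). Without SS299 alone it passed in cecum over proximal jejunum, in descending colon over proximal jejunum and in cecum over distal jejunum, by 1.43, 0.97 and 0.89 on the log2 scale.

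For bta-miR-10b the duodenum values were 20197, 10846, 15803, 1545 and 14125 CPM in SS and 12314, 8348, 10879, 16895 and 15538 CPM in NS. The value of SS299 was the lowest by far. In proximal jejunum bta-miR-10b had 16112, 54588, 20652, 66083 and 16928 CPM in SS and 19915, 34685, 9887, 21050 and 11858 CPM in NS, a range that reached into that of the duodenum. In distal jejunum it had 11065, 14639, 64018, 169384 and 53688 CPM in SS and 67545, 62645, 17061, 53629 and 21428 CPM in NS. The value of SS299 stood far above the rest in that region.

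Every cecum library was above every duodenum library for bta-miR-10b, with 83956, 104477, 85555, 37928 and 151880 CPM in SS and 146203, 88696, 76642, 69758 and 68592 CPM in NS. The same held for spiral colon, with 37670, 80172, 24643, 64912 and 77206 CPM in SS and 73455, 79292, 22888, 49378 and 64048 CPM in NS. In descending colon bta-miR-10b had 68087, 13640, 32043, 224597 and 51476 CPM in SS and 60927, 43334, 99836, 95503 and 43790 CPM in NS. The phenotypes overlapped in all 6 regions, and the 224597 CPM of SS299 descending colon was the highest value of either member.

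The mean of bta-miR-10b over the 10 steers was 12649 ± 5204 CPM in duodenum, 27176 ± 18902 in proximal jejunum, 53510 ± 46533 in distal jejunum, 91369 ± 34952 in cecum, 57367 ± 22277 in spiral colon and 73323 ± 59418 CPM in descending colon. The mean was higher in each region down to the cecum than in the one before it. Its step after the duodenum was smaller than that of bta-miR-10a, as the ratio of the pair shows below. It exceeded the steer's own duodenum in 7 of 10 steers in proximal jejunum, 9 in distal jejunum and 10 in each large intestinal region.

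The level of bta-miR-10b differed between regions as well (adjusted p = 0.000236, rank 8 of 381). In proximal jejunum the difference from duodenum, 1.22 ± 0.52 on the log2 scale, did not pass (adjusted p = 0.167, fold interval 1.13 to 4.84), whereas with DESeq2, at 1.25, it did. Against duodenum, bta-miR-10b was 5.61-fold higher in distal jejunum (2.63 to 12, adjusted p = 0.00131) and 8.39-fold higher in cecum (3.86 to 18.2, adjusted p = 5.64e-05). It was 5.61-fold higher in spiral colon (2.63 to 12, adjusted p = 0.0013) and 8.65-fold higher in descending colon (3.97 to 18.9, adjusted p = 8.76e-05). It was also higher in cecum and in descending colon than in proximal jejunum, by 1.85 ± 0.53 and 1.89 ± 0.53 on the log2 scale (adjusted p = 0.0228 and 0.0221). Whether the members differ in this was tested only through their ratio, below.

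In the other pairs of regions bta-miR-10b did not pass. By adjusted p, nearest to passing was spiral colon over proximal jejunum (1.27 on the log2 scale, adjusted p = 0.238 in edgeR), followed by descending colon over distal jejunum (0.63, adjusted p = 0.434 in edgeR). Distal over proximal jejunum was 1.26 (adjusted p = 0.999 in edgeR), nearly the same difference as spiral colon over proximal jejunum. Their fold intervals were 1.159 to 4.981 and 1.16 to 4.985. The adjusted p also depends on the other miRNAs of each pair. Of all 381 miRNAs, 10.8% passed in cecum against proximal jejunum, 17.8% in descending colon against proximal jejunum, 1.84% in spiral colon against proximal jejunum, 12.3% in cecum against distal jejunum and 17.1% in descending colon against distal jejunum. In spiral colon against cecum 0.525% passed, in descending colon against cecum 0.787% and in descending colon against spiral colon 0.262%. No miRNA (0%) passed in distal against proximal jejunum or in spiral colon against distal jejunum, where 10 and 41 had an unadjusted p under 0.05 in edgeR. With the steer as a block, 71 miRNAs passed in cecum against proximal jejunum, against 41 without it. When the 11 libraries against their label were left out, bta-miR-10b also passed in spiral colon over proximal jejunum (2.30) and in cecum, spiral colon and descending colon over distal jejunum (2.03, 1.70 and 2.29), while proximal jejunum over duodenum was 0.51 (adjusted p = 0.359). Leaving out SS299 alone, it passed in spiral colon over proximal jejunum (1.91) and in cecum and descending colon over distal jejunum (1.59 and 1.10).

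Set against the mean of the 3 small intestinal regions, the mean of the 3 large intestinal regions was 2.83-fold higher for bta-miR-10a (1.96 to 4.07, adjusted p = 3.95e-05) and 3.15-fold higher for bta-miR-10b (2.06 to 4.81, adjusted p = 8.8e-05), in a comparison in which 31.2% of 381 miRNAs passed. Without the 11 libraries against their label the differences on the log2 scale were 2.15 and 2.57, against 1.50 and 1.65 with them. In that smaller set 201 miRNAs passed, against 119. On library totals alone, with no TMM factor, the median of all miRNAs shifted by -0.22 on the log2 scale, and the members stood 1.55 and 1.72 above that median.

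Some miRNAs of the other cell type lists passed in large against small intestine too, where 31.2% of all 381 miRNAs passed. The epithelium, smooth muscle and red blood cell lists were near or below that share. In large against small intestine 4 of 6 leukocyte miRNAs were lower (list median -0.56 on the log2 scale), with summed levels of 1235 to 18879 CPM in large and 367 to 32754 CPM in small intestinal libraries. Of the 5 mesenchyme miRNAs 3 were higher (list median 0.28), with sums of 2175 to 20184 CPM in large and 1263 to 9055 CPM in small intestinal libraries. Of the 9 epithelium miRNAs 2 were higher and 1 lower. Of the 5 smooth muscle miRNAs 1 was higher (list median 0.44), with sums of 117475 to 707621 CPM in large and 84146 to 604899 CPM in small intestinal libraries. Of the 3 red blood cell miRNAs 1 was higher (list median 0.22), with sums of 131 to 14942 CPM in large and 193 to 1838 CPM in small intestinal libraries. Each of these lists had all of its members above 1 CPM in some library of every group, and their part in the result was not tested.

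**Figure D2:**
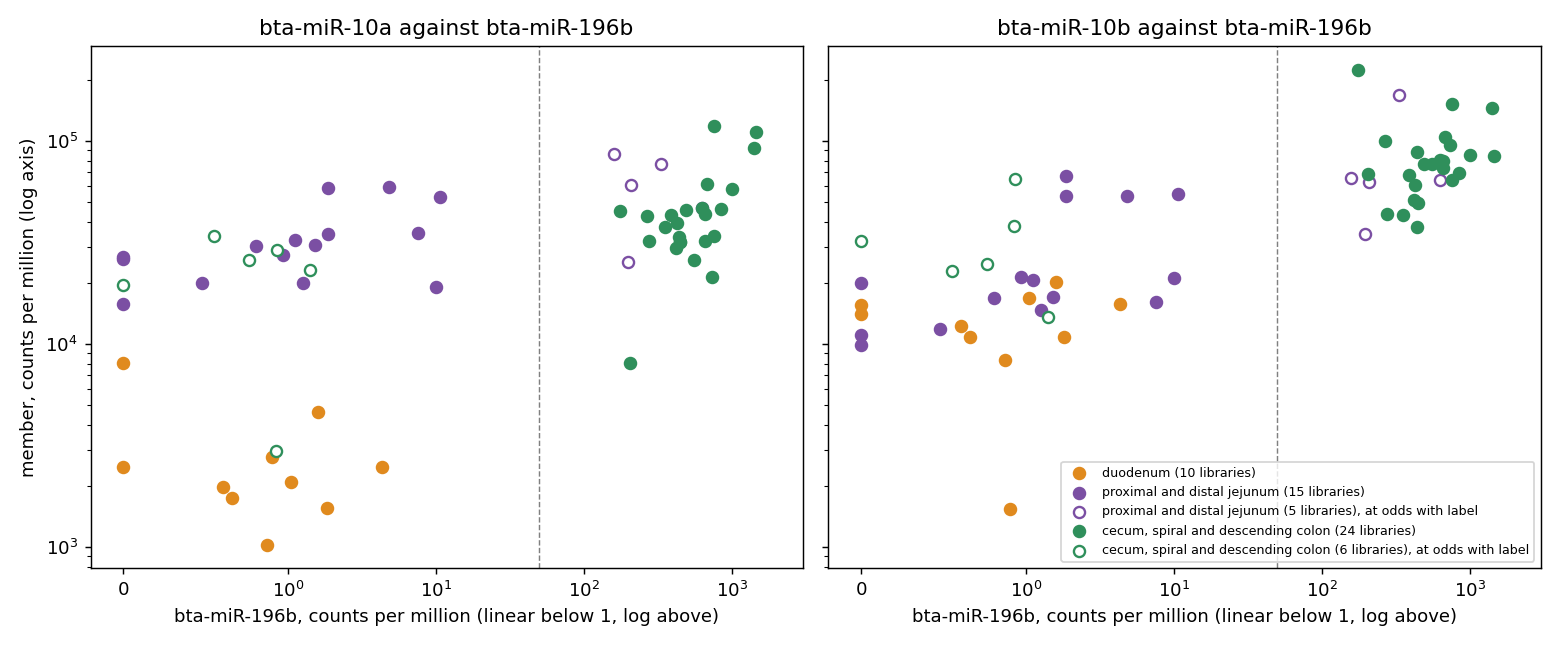
Level of bta-miR-10a (left) and bta-miR-10b (right) against that of bta-miR-196b in the 60 libraries, in CPM on log axes (the bta-miR-196b axis is linear below 1 CPM), with duodenum, jejunum and large intestine marked by colour and a dashed line at 50 CPM. Open points are the 11 libraries against their label, of which the 6 large intestinal ones (0 to 1.40 CPM of bta-miR-196b) lie left of the line and the 5 jejunal ones (158 to 629 CPM) right of it.

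The other miRNAs of the HOX clusters had larger fitted differences between large and small intestine than the miR-10 members, although this was not tested. The difference was 4.09 ± 0.53 on the log2 scale for bta-miR-196a (adjusted p = 1.22e-07) and 4.74 ± 0.78 for bta-miR-196b (adjusted p = 1.91e-05), so that all 4 HOX miRNAs tested were higher in large intestine. The list median was 2.87, against -0.01 for all 381 miRNAs. All 4 passed without the 11 libraries against their label too (list median 3.77) and without SS299 (3.08). The 11 libraries were picked by bta-miR-196b itself, so that it passed without them was set by that choice. The fifth, bta-miR-615, did not pass the filter on low counts. The members' level separated the 11 libraries by bta-miR-196b only in part. The 5 small intestinal libraries against their label had 25480 to 86602 CPM of bta-miR-10a and 34685 to 169384 CPM of bta-miR-10b, and the other 25 had 1028 to 59608 and 1545 to 67545 CPM. The 6 large intestinal ones against their label had 2954 to 34208 CPM of bta-miR-10a and 13640 to 64912 CPM of bta-miR-10b, and the other 24 had 8069 to 118105 and 37670 to 224597 CPM.

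**Figure D3:**
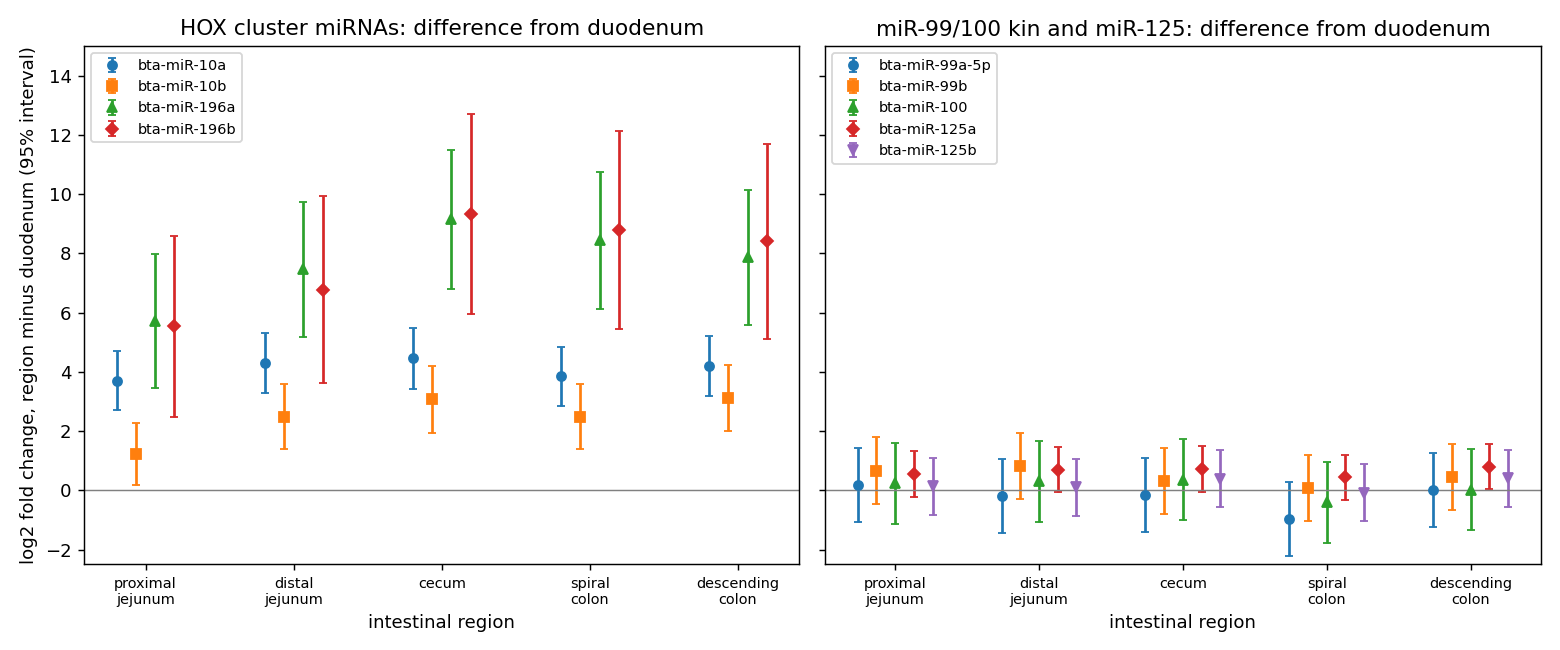
Difference of each region from the duodenum on the log2 scale, from the fit over 60 libraries, for the 4 HOX cluster miRNAs tested (left) and for the miR-99, miR-100 and miR-125 list (right), with 95% intervals as bars. The differences run from 3.71 to 4.45 for bta-miR-10a, from 1.22 to 3.11 for bta-miR-10b and from 5.54 to 9.32 for bta-miR-196b, and those of the right panel lie between -0.97 and 0.82.

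The miR-99 and miR-100 miRNAs are related to miR-10 in sequence but lie outside the HOX clusters, in clusters that also hold miR-125 genes. None of bta-miR-99a-5p, bta-miR-99b, bta-miR-100, bta-miR-125a and bta-miR-125b passed in large against small intestine (list median -0.19 on the log2 scale). The largest of these differences in size was that of bta-miR-99a-5p, -0.38 ± 0.36 (adjusted p = 0.491). Without SS299 1 of the 5, bta-miR-125a, passed as higher (list median 0.20), and without the 11 libraries 3 did, bta-miR-100, bta-miR-125a and bta-miR-125b (list median 0.62). All 5 differed between steers of 1 phenotype in the mean over regions, with adjusted p of 9.17e-07 for bta-miR-99a-5p, 1.19e-05 for bta-miR-99b and bta-miR-100, 0.000102 for bta-miR-125b and 0.00541 for bta-miR-125a, in an F test that 37.0% of 381 miRNAs passed. In the same test bta-miR-10a had an adjusted p of 0.624 and bta-miR-10b of 0.293, bta-miR-196a passed (0.0996) and bta-miR-196b did not (0.52). Without SS299 bta-miR-125a (0.187) and bta-miR-196a (0.568) no longer passed in edgeR, and without the 11 libraries bta-miR-125a did not (0.181).

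**Figure D4:**
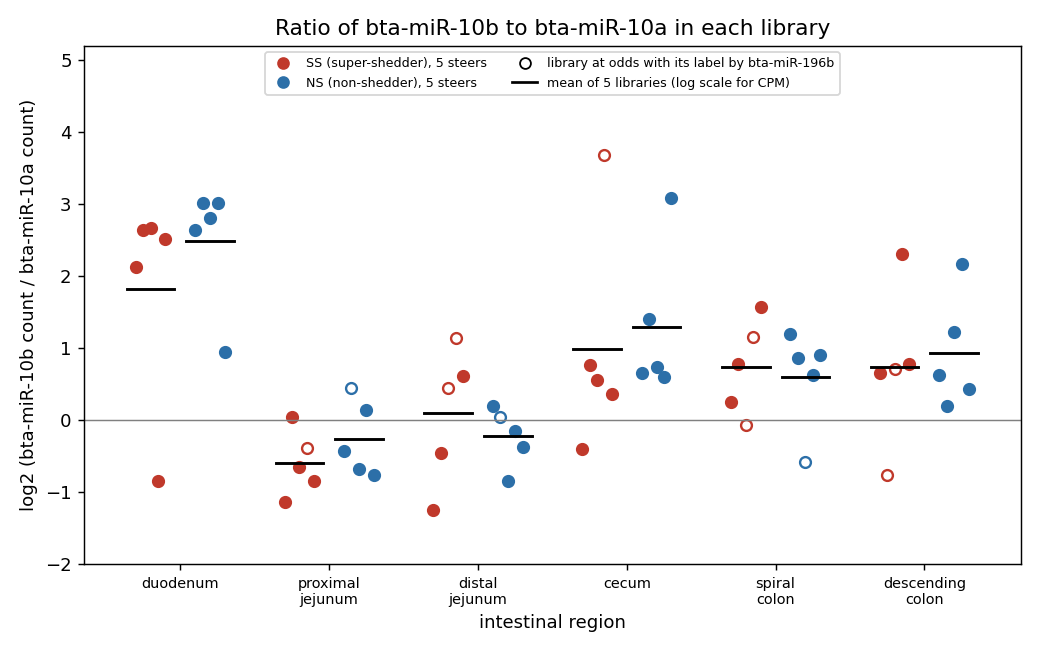
Log2 ratio of the bta-miR-10b count to the bta-miR-10a count in each of the 60 libraries, by intestinal region, SS left of NS, with the mean of 5 libraries as a bar. The ratio averages 2.16 in duodenum and -0.42 in proximal jejunum, and SS299 departs from the other steers in duodenum (-0.84) and, with NS745 (3.09), in cecum (3.68).

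Because both members are read from the same library, their ratio does not depend on the library total or on the normalization. In 43 of 60 libraries bta-miR-10b was the more abundant of the pair, in 9 of 10 in duodenum, 3 in proximal jejunum, 5 in distal jejunum, 9 in cecum, 8 in spiral colon and 9 in descending colon. In duodenum the log2 ratio of bta-miR-10b to bta-miR-10a was 2.13, 2.65, 2.68, -0.84 and 2.51 in SS and 2.64, 3.02, 2.80, 3.02 and 0.95 in NS. In proximal jejunum it was -1.13, 0.05, -0.65, -0.39 and -0.84 in SS and -0.43, 0.44, -0.67, 0.14 and -0.76 in NS. Only SS299 had a lower ratio in duodenum than in proximal jejunum.

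In distal jejunum the log2 ratio was -1.24, -0.45, 0.45, 1.14 and 0.62 in SS and 0.20, 0.05, -0.84, -0.15 and -0.36 in NS. In cecum it was -0.40, 0.77, 0.55, 3.68 and 0.36 in SS and 0.66, 1.40, 0.74, 0.60 and 3.09 in NS. The ratios of SS299 and NS745 stood apart in the cecum, and both steers had the lowest bta-miR-10a levels of that region. In spiral colon the log2 ratio was 0.25, 0.78, -0.07, 1.16 and 1.58 in SS and 1.20, 0.86, -0.58, 0.63 and 0.91 in NS. In descending colon it was 0.66, -0.76, 0.72, 2.31 and 0.79 in SS and 0.63, 0.20, 1.23, 2.17 and 0.44 in NS, a wide and overlapping range.

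Of 6 differences of the ratio between regions, tested within steers by an exact two-sided sign-flip permutation test, 2 passed at an adjusted p of 0.05. The log2 ratio was lower in proximal jejunum than in duodenum by a mean of -2.58 ± 1.19 (SD, n = 10 steers, lower in 9 of 10, exact p = 0.00391, adjusted p = 0.0176). It was higher in cecum than in distal jejunum by 1.21 ± 1.12 (higher in 9 of 10 steers, exact p = 0.00586, adjusted p = 0.0176). The smallest p that 10 steers allow is 0.00195. The other 3 neighbouring pairs differed by 0.36 ± 0.78 (distal minus proximal jejunum), -0.48 ± 1.22 (spiral colon minus cecum) and 0.17 ± 1.13 (descending minus spiral colon), and large minus small intestine by 0.33 ± 0.93, with adjusted p of 0.355, 0.375, 0.645 and 0.473 in the exact test. Without the 11 libraries against their label, proximal jejunum minus duodenum was -2.96 (8 of 8 steers, adjusted p = 0.0469 in the exact test). Cecum minus distal jejunum was then 1.15 (6 of 7 steers) and no longer passed (adjusted p = 0.0938, exact). With the median of the differences in place of the mean, over all libraries, the first was -2.98 and the second 1.04, and neither passed (adjusted p = 0.0938 for both, exact).

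The comparison of the study, SS against NS within each region, set steers classed as heavy shedders of E. coli O157 before slaughter against steers negative for it. At slaughter most SS steers no longer shed at that level. Neither member passed in any region or on counts summed per steer. The difference nearest to passing was that of bta-miR-10a in proximal jejunum, with 47452 ± 23612 CPM in SS and 21431 ± 4601 CPM in NS (n = 5 each). The groups did not overlap, but how many of the 355 miRNAs had groups without overlap was not counted. SS was higher by 1.73 ± 0.55 on the log2 scale (3.31-fold, 95% interval 1.44 to 7.60, unadjusted p = 0.00876, rank 6 of 355), but the adjusted p in edgeR was 0.317. In that comparison 0.282% of 355 miRNAs passed. Without SS299, whose epithelial sum was the lowest of that region, the difference was 0.81, and without the 11 libraries against their label 0.90. The SE was then smaller too, at 0.21 and 0.23. The unadjusted p in edgeR was 0.00255 and 0.0028, and the adjusted p 0.389 and 0.324. On library totals alone the difference was 1.15.

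The level of bta-miR-10b in proximal jejunum was 34873 ± 23659 CPM in SS and 19479 ± 9798 CPM in NS, a difference of 1.41 ± 0.65 on the log2 scale (adjusted p = 0.461) that was 0.38 without SS299 and 0.84 on library totals alone. In distal jejunum bta-miR-10b had 62559 ± 64110 CPM in SS and 44462 ± 23606 CPM in NS, and its difference of 1.80 ± 0.97 (adjusted p = 0.492) likewise rested on SS299, without which it was 0.01. On library totals alone it was 0.49. The mean of bta-miR-10a in distal jejunum was 40900 ± 22376 CPM in SS and 47447 ± 16792 CPM in NS. Its fitted difference of 0.83 ± 0.69 (adjusted p = 0.654) had the opposite sign to the CPM means and turned to -0.21 on library totals alone and to -0.29 without SS299. The TMM factor of SS299 distal jejunum, 0.368, was the lowest of all 60 libraries. In distal jejunum 0.592% of 338 miRNAs passed.

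**Figure D5:**
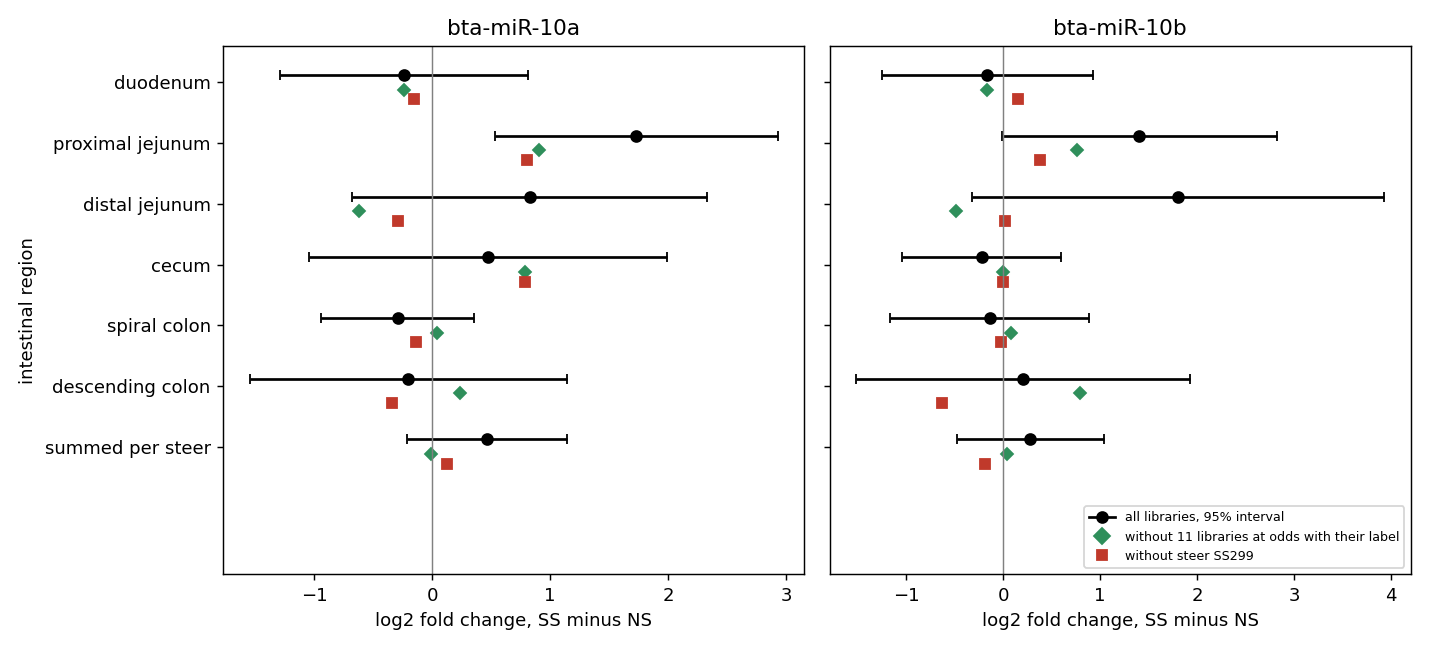
SS minus NS difference of bta-miR-10a (left) and bta-miR-10b (right) on the log2 scale in each region and on counts summed per steer, with 95% intervals, and the same difference without the 11 libraries against their label and without steer SS299. Of all intervals only that of bta-miR-10a in proximal jejunum (1.73) lies wholly above 0, and there the differences of both members are smaller without SS299.

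In duodenum the mean of bta-miR-10a was 2812 ± 1081 CPM in SS and 2940 ± 2892 CPM in NS, and that of bta-miR-10b 12503 ± 6992 CPM in SS and 12795 ± 3464 CPM in NS. The differences of -0.24 ± 0.48 and -0.16 ± 0.50 on the log2 scale did not pass (adjusted p = 0.934 and 0.974, with 0.293% of 341 miRNAs passing). The first of these turned to 0.57 without NS745. In cecum bta-miR-10a averaged 70182 ± 46545 CPM in SS and 45160 ± 30540 CPM in NS (0.47 ± 0.70, adjusted p = 0.816), and bta-miR-10b 92759 ± 41135 CPM in SS and 89978 ± 32431 CPM in NS (-0.22 ± 0.38, adjusted p = 0.85, 0.292% of 342 miRNAs passing). The interval of the fold, SS over NS, was 0.487 to 3.97 for bta-miR-10a and 0.486 to 1.51 for bta-miR-10b in cecum. Without SS299, the 1 cecum library against its label, the differences were 0.79 and -0.01 on the log2 scale.

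In spiral colon bta-miR-10a averaged 31840 ± 8678 CPM in SS and 35169 ± 4860 CPM in NS. Its difference was -0.29 ± 0.30 on the log2 scale (adjusted p = 0.808, fold interval 0.521 to 1.28), with 0.898% of 334 miRNAs passing. The mean of bta-miR-10b in spiral colon was 56921 ± 24640 CPM in SS and 57812 ± 22560 CPM in NS (-0.14 ± 0.47, adjusted p = 0.981). In descending colon bta-miR-10a averaged 32185 ± 11634 CPM in SS and 34663 ± 8380 CPM in NS (-0.20 ± 0.62), and bta-miR-10b 77969 ± 84479 CPM in SS and 68678 ± 27442 CPM in NS (0.21 ± 0.79, adjusted p = 0.992 for both). Without SS299 the difference of bta-miR-10b there was -0.63. None of 331 miRNAs (0%) passed in descending colon by edgeR or DESeq2, where 10 and 15 had an unadjusted p under 0.05, or by the exact test of edgeR, where 18 did. When all 60 libraries shared 1 fit, 3 passed there.

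On counts summed over the 6 regions of each steer, SS minus NS was 0.46 ± 0.31 on the log2 scale for bta-miR-10a (adjusted p = 0.683) and 0.28 ± 0.35 for bta-miR-10b (adjusted p = 0.805), with 0.583% of 343 miRNAs passing. The interval of the fold was 0.865 to 2.20 for bta-miR-10a and 0.718 to 2.06 for bta-miR-10b. The summed differences were -0.01 and 0.04 without the 11 libraries against their label. The SS against NS difference did not vary between regions beyond the spread for either member (F test of 5 interaction terms, adjusted p = 0.992 for both), in a test that 0.262% of 381 miRNAs passed. The miR-99, miR-100 and miR-125 list had 5 of 5 positive differences in each of the 6 regions, of which none passed (list medians 2.44 in proximal jejunum, where the median of all miRNAs was 0.11, and 2.48 in distal jejunum, where it was 0.06). Without SS299 these list medians were 0.82 and 0.97, and without the 11 libraries 0.93 and 0.06. The summed level of the list in SS299 was 85840 CPM in proximal jejunum, where the other SS libraries had 11105 to 21727 CPM and the NS libraries 5151 to 17312 CPM.

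The log2 ratio of bta-miR-10b to bta-miR-10a passed in no region in SS against NS by an exact two-sided permutation test over the 252 arrangements of 5 against 5 steers. The SS minus NS difference was -0.66 in duodenum, -0.34 in proximal jejunum, 0.33 in distal jejunum, -0.30 in cecum, 0.14 in spiral colon and -0.19 in descending colon. Unadjusted exact p ran from 0.286 to 0.81, the adjusted p was 0.81 in all 6 regions, and the smallest p that the design allows is 0.00794. Without SS299 the cecum difference was -0.98 (adjusted p = 0.762, exact).

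Across the 10 steers of a region, the 2 members varied together by both coefficients in distal jejunum and cecum (log2 CPM, permutation tests with 100000 pairings, 6 regions tested). In distal jejunum Pearson's r was 0.911 (permutation adjusted p = 0.00318) and Spearman's rho 0.842 (permutation adjusted p = 0.0229), and r was 0.864 without SS287 and SS299, the steers farthest from the median of bta-miR-10a. Without them rho was 0.714 and no longer passed (permutation adjusted p = 0.17). In cecum r was 0.839 (permutation adjusted p = 0.00318) and rho 0.77 (permutation adjusted p = 0.0384), with r = 0.65 and rho = 0.548 without SS299 and NS745 (permutation adjusted p of rho 0.344). In proximal jejunum r was 0.833 (permutation adjusted p = 0.00572) but rho 0.564 (permutation adjusted p = 0.146), and without SS287 and SS299 r was 0.436, so that the relation rested on these steers.

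In duodenum r was 0.19 and rho 0.479, and in spiral colon 0.368 and 0.382, with no adjusted permutation p under 0.2. Without the 2 farthest steers r was 0.0314 in duodenum (NS152 and NS745 left out) and -0.0588 in spiral colon (SS287 and NS152 left out). In descending colon r was 0.572 and rho 0.648 (permutation adjusted p = 0.125 and 0.0961), and r was 0.878 without SS294 and NS242. All of these values share the library total between the members. On TMM-normalised CPM rho was 0.952 in distal jejunum, 0.891 in both colon regions, 0.673 in duodenum, 0.661 in proximal jejunum and only 0.309 in cecum (permutation adjusted p = 0.389), so which regions passed depended on the scaling.

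Over all 60 libraries, of 225 miRNAs with a mean of at least 10 CPM, the one whose pattern was most like that of either member was the other member (Spearman's rho of TMM-normalised log2 CPM 0.847). For bta-miR-10a, bta-miR-196b (0.75), bta-miR-196a (0.726), bta-miR-130a (0.548) and bta-miR-27b (0.528) followed. For bta-miR-10b they were bta-miR-196b (0.81), bta-miR-196a (0.684), bta-miR-27b (0.68) and bta-miR-130a (0.658). The values of the HOX miRNAs held on plain CPM (0.653 to 0.8), whereas bta-miR-130a and bta-miR-27b had rho of only -0.01 to 0.19 there. At the other end of the order stood bta-miR-215, with rho of -0.604 to bta-miR-10a and -0.729 to bta-miR-10b. Without the 11 libraries rho between the members was 0.849, and rho to bta-miR-196b was 0.781 for bta-miR-10a and 0.831 for bta-miR-10b. These are descriptions over libraries that share steers and library totals.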

How the data were processed

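Whole, snap-frozen intestinal tissue gave total RNA for TruSeq small RNA libraries. After trimming and filtering, the authors counted reads per bovine miRNA with sRNAtoolbox, default settings, and deposited these whole-number counts: 608 miRNAs in 60 libraries, 5 of them at 0 throughout. The submitters' notes on processing list Bowtie and edgeR, with no version. The sources used here tie no genome build and no miRBase release to the counts. The RAJ libraries were not analysed here, and the number of per-sample columns not used was 0. All 120 pairs of libraries of a group differed by more than sampling noise (chi-square divided by its degrees of freedom at least 26.9).

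CPM used library totals. Counts were tested with edgeR 4.0.16 (R 4.3.3, TMM, quasi-likelihood, Benjamini-Hochberg, FDR of 10%) on miRNAs above 1 CPM in at least 3 libraries of 1 group. SS against NS was fitted within each region, and the regions over all 60 libraries as 12 group means. Alternatives were DESeq2 1.42.0 and edgeR's exact test, the one named in the study's methods. The 95% intervals are the log2 difference plus or minus the SE times the t quantile at the degrees of freedom of the quasi-likelihood test. Ratios and correlations were tested by permutation, at an adjusted p of 0.05, with numpy 2.4.6 and scipy 1.17.1. Each script was tested on simulated data. The labels pair the regions by steer: the mean correlation of deviations from group means was 0.129 within steers (positive in 114 of 150 pairs) and -0.0119 between steers (1350 pairs).

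Named were both members, the HOX cluster list, the miR-99, miR-100 and miR-125 list and, for each member, the 5 miRNAs with the highest Spearman's rho. The members, lists and tests were chosen with earlier results of these data known. Reads carry no molecular identifiers, so p-values rest on the spread between steers.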

Additional observations from a re-analysis of the deposited data

Results flagged for a closer look

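Of 36 groups of 5 libraries (each member and the ratio, in SS and NS of each region), 8 held 1 library far from the other 4 by Dixon's test at its 95% critical value, which chance alone gives in about 1 in 20 groups. In duodenum SS299 had a log2 ratio of bta-miR-10b to bta-miR-10a of -0.837, where the other SS steers had 2.13 to 2.68. In the NS duodenum NS745 stood apart in both, with 8061 CPM of bta-miR-10a (the others 1028 to 2082 CPM) and a log2 ratio of 0.947 (the others 2.64 to 3.02). In the SS cecum the log2 ratio of SS299 was 3.68, where the other SS steers had -0.40 to 0.77; this library was one of those against their label, with 0.93 CPM of bta-miR-196b. In the NS cecum NS108 had 146203 CPM of bta-miR-10b, where the others had 68592 to 88696 CPM.

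In spiral colon the highest library of each phenotype stood apart for bta-miR-10a, with 46726 CPM in SS287 (the other SS steers 25804 to 31709 CPM) and 43643 CPM in NS152 (the other NS steers 31940 to 34208 CPM). In the SS descending colon SS299 had 224597 CPM of bta-miR-10b, where the other SS steers had 13640 to 68087 CPM.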

How the results depend on the processing

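For the members, every call against duodenum, in large against small intestine, in the other region pairs and in the F test between regions held in each alternative run; calls gained are given with those results or rested on totals without bta-miR-143 and bta-miR-192 (bta-miR-10b, spiral colon against proximal jejunum, 1.27). Neither member passed in SS against NS under any alternative. Counts of called miRNAs were less stable. SS against NS in distal jejunum gave 14 with DESeq2 and 8 with the exact test, against 2, and summed counts gave 14 and 15, against 2. As a mean over regions in 1 fit the summed comparison gave 52. That fit has no steer term and counts the libraries of a steer as independent replicates, so the 52 cannot be set beside the 2. The F test between regions gave 53 on library totals alone, 63 at an FDR of 5% and 211 without the 11 libraries, against 116. Library totals alone moved the median of all miRNAs by up to -0.354 on the log2 scale (SS against NS, distal jejunum). The steer as a replicate block changed no call of a member (F test between regions, adjusted p = 5.4e-07 and 0.00019) and gave -0.25 for bta-miR-10b in descending colon against cecum; no paired analysis was possible for SS against NS because no steer has both phenotypes.

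Signs of differences that had not passed turned as follows (log2 scale; the cause was not tested). In spiral colon against distal jejunum bta-miR-10b was -0.094 with DESeq2 size factors and with DESeq2, and -0.015 without a filter. On library totals alone bta-miR-10b was -0.32 in descending colon against cecum and 0.044 for SS against NS in cecum, and bta-miR-10a was -0.0027 in descending against spiral colon and -0.21 for SS against NS in distal jejunum. On totals without bta-miR-143 and bta-miR-192 these were -0.24 for bta-miR-10b in descending colon against cecum and, for SS against NS, -0.074 for bta-miR-10a in distal jejunum and -0.14 for bta-miR-10b in descending colon. Without the 11 libraries, an alternative chosen after seeing the data, bta-miR-10a was 0.63 in spiral and 1.0 in descending colon against distal jejunum, and SS against NS was -0.62 (bta-miR-10a) and -0.48 (bta-miR-10b) in distal jejunum, 0.043 and 0.084 in spiral colon, and for bta-miR-10a 0.23 in descending colon and -0.011 summed.

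Leaving out 1 steer at a time gave, for bta-miR-10a between regions, -0.051 to 0.74 in spiral colon against proximal jejunum and, against distal jejunum, -0.13 to 0.89 in cecum, -0.74 to 0.20 in spiral colon and -0.46 to 0.43 in descending colon. For bta-miR-10b it gave -0.30 to 0.95 in spiral colon against distal jejunum and -0.48 to 0.30 in descending colon against cecum. For SS against NS, bta-miR-10a ran from -0.40 to 0.57 in duodenum, -0.29 to 1.10 in distal jejunum and -0.70 to 0.12 in descending colon, and bta-miR-10b from -0.30 to 0.16 in duodenum, -0.46 to 0.16 in spiral colon, -0.63 to 0.78 in descending colon and -0.19 to 0.39 summed. The SS minus NS difference of the log2 ratio ran from -1.05 to 0.0039 in duodenum, -0.98 to 0.14 in cecum, -0.16 to 0.34 in spiral colon and -0.58 to 0.19 in descending colon, and the ratio in descending minus spiral colon from -0.017 to 0.36.

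With medians in place of means, the ratio in proximal jejunum minus duodenum was -2.98 and in cecum minus distal jejunum 1.04, both no longer passing, in descending minus spiral colon -0.028, and for SS against NS -0.083 in spiral and 0.087 in descending colon. Without the 11 libraries the ratio was 1.15 in cecum minus distal jejunum, no longer passing, and -0.090 in descending minus spiral colon, and for SS against NS -0.066 in distal jejunum, -0.032 in spiral colon and 0.32 in descending colon. Spearman's rho of the members no longer passed without the 2 farthest steers in distal jejunum (0.714) and cecum (0.548), or on TMM CPM in cecum (0.309). It passed on TMM CPM in spiral and in descending colon (0.891 in both) and without the 2 farthest steers in descending colon (0.881), and was -0.214 without them in spiral colon.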
